A study of Mus musculus with 2 samples.

Results

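The genes described here are the 39 genes of a list for protein folding and secretion in the endoplasmic reticulum (ER) and for the unfolded protein response, out of 14877 genes with a value in the series. They are a list given by name, and the rule that defines it uses no measured value, but the members were chosen with earlier results of these data known. The study induced osteoclasts, the bone-resorbing cells that form by fusion of macrophage-lineage precursors, from the bone marrow cells of wild-type mice. In the library named M the cells received M-CSF, the growth factor of the macrophage lineage, at 20 ng/mL and no RANKL. In the library named MR they received M-CSF at 20 ng/mL for 2 days and then M-CSF at 20 ng/mL with RANKL, the cytokine that drives osteoclast formation, at 100 ng/mL for 2 days as the labels give it (the methods of the study describe a longer second phase). The labels give both libraries the same protocol text, with 2 days in each phase, and do not describe the second phase of M by itself. Both cultures shared the wild-type genotype, the bone marrow source and M-CSF, and the age of the mice, and whether marrow was pooled, were not given in the sources used here. Each condition was 1 library, so that no difference has a replicate check and no p-value is given.

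Secreted and membrane proteins enter the ER through the translocon, lose their signal peptide to the signal peptidase and fold with chaperones and disulfide isomerases. Proteins that fail to fold are drawn back to the cytosol and degraded, a process called ER-associated degradation. When unfolded proteins accumulate, the sensors encoded by Ern1 (IRE1), Eif2ak3 (PERK) and Atf6 start the unfolded protein response, which slows translation and raises chaperones and degradation factors through Xbp1, Atf4 and the cleaved Atf6. Osteoclasts secrete large amounts of enzymes such as cathepsin K, and plasma cells are the textbook example of a cell whose ER grows with its secretory load.

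The levels below are TPM, in which reads are scaled for transcript length and library size, summed over the assembled loci of each gene. A log2 ratio is log2 of (TPM in MR + 1) over (TPM in M + 1), and a gene was called higher or lower where it was above 1 or below -1, which is a 2-fold difference. The aligned reads came to 3.63 Gb in M and 2.98 Gb in MR. Among the 13393 genes whose locus was not shared and that reached 1 TPM in either library, 2817 were called higher and 1747 lower, and the median log2 ratio was 0.21. All 7 osteoclast markers were higher in MR. Acp5, the tartrate-resistant acid phosphatase, was 51.9 TPM in M and 4947 TPM in MR, and Ctsk, cathepsin K, was 53.1 and 12867 TPM. The summed level of the 7 macrophage and monocyte markers was 20294 TPM in M and 7902 TPM in MR, and 3 of the 7 were called lower. Lyz2, whose locus is shared with another gene, gave 16035 and 4535 TPM of these sums. Markers of other cells that the cultures could hold were also summed. The neutrophil markers summed to 1384 TPM in M and 965 in MR, the dendritic cell markers to 186 and 179, the stromal cell markers to 27.6 and 39.6, and the mast cell and basophil markers to 5.59 and 3.30. Of the plasma cell and B cell markers, which matter for an ER list, the defining Jchain and Mzb1 had no locus in either library, and the sum was 32.5 TPM in M and 184.7 TPM in MR, of which Sdc1 gave 4.97 and 159.7 TPM. The log2 ratio of Sdc1 was 4.75 from TPM and 1.80 from the listed coverage, a read depth per base. Ratios from coverage also have 1 added in each library, after division by the aligned Gb. The part of these cells in the results was not tested, and in such bulk cultures fewer cells of a type and less RNA per cell cannot be told apart.

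The promoters of many of these genes carry short elements through which the unfolded protein response acts, and the sequences are shown here because the members can be grouped by them. RefSeq windows of 300 bases (250 bases before the start site and 50 after, build GRCm38.p6) were found for 32 of the 39 genes, and Hyou1, Manf, Atf6, Derl1, Sec61a1, Ssr2 and Spcs3 had none. Both strands were searched. The ER stress response element, CCAAT and CCACG with 9 bases between them, was in the windows of 9 of the 32 genes (28.1%), against 39 of all 32851 windows (0.119%). The 9 were Calr, Canx, Creld2, Derl3, Dnajc3, Hsp90b1, Hspa5, Pdia6 and Syvn1, and Hsp90b1 held it at 2 places. The following lines show 4 of them, each element in capitals with 8 bases on either side, read along the strand of the gene. They lie at chr2:34772025-34772043 on the plus strand, chr8:84847075-84847093 on the minus strand, chr11:50325800-50325818 on the minus strand and chr12:17266491-17266509 on the plus strand, in this order. In Calr the element is read from the other strand.
Hspa5: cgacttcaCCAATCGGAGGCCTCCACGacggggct
Calr: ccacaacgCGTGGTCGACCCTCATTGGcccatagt
Canx: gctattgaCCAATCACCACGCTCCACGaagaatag
Pdia6: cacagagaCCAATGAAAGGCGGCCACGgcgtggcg

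A second form of the element, ATTGG and CCACG with 1 base between them, was in 2 of the 32 windows (6.25%) and in 12 of all windows (0.0365%). The amino acid response element core, TGATG and AA with 1 base between them, to which ATF4 binds with a partner, was in 2 of the 32 windows (6.25%) and in 1304 of all windows (3.97%). The core of the unfolded protein response element, TGACGTG, was in the window of Hspa5 and in 661 of all windows (2.01%). The lines below show both elements in the same way, for the genes that hold them. The second form lies at chr8:94386377-94386387 on the plus strand in Herpud1 and at chr16:22857852-22857862 on the plus strand in Dnajb11. In Herpud1 it is 52 to 42 bases before the start, and in Dnajb11 it is 7 to 17 bases past the start. The core, read from the other strand, lies at chr8:94386317-94386324 on the plus strand in Herpud1 and at chr2:152344039-152344046 on the minus strand in Trib3, where it is 14 to 21 bases past the start.
Herpud1, second form: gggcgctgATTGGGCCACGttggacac
Dnajb11, second form: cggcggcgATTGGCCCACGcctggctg
Herpud1, core: acggcgggTTGCATCAgcccgcac
Trib3, core: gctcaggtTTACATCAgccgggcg

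Herpud1 alone held both the second form and the core, and its whole window (chr8:94386179-94386478, plus strand) is given beside that of Hspa5 (chr2:34771840-34772139, plus strand), which held the ER stress response element 65 to 47 bases before its start and the TGACGTG core 157 to 151 bases before it. The start site is the base after the 250th in each line, and the motifs are in capitals.
Herpud1: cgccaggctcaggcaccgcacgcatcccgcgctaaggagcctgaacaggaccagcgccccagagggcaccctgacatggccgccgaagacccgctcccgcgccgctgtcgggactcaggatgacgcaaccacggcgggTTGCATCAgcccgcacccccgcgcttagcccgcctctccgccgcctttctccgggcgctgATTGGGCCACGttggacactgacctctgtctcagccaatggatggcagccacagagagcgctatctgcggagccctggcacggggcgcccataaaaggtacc
Hspa5: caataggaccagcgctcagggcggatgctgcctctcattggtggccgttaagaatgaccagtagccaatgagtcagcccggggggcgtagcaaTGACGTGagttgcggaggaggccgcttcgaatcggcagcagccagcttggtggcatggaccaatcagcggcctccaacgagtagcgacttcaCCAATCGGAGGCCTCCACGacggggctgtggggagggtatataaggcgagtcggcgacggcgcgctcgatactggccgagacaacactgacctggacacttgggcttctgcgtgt

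Each of the 39 genes had 1 unshared locus in M and 1 in MR. Of the 39, 4 were called higher in MR (10.3%, against 21.0% of all genes) and 3 lower (7.69%, against 13.0% of all genes), and 32 lay between the thresholds. Among the 11726 genes that also had an unshared locus in both libraries, 15.3% were higher and 9.41% lower. Eif2ak3, Herpud1, Edem1 and Spcs3 were higher, and Derl2, Ddit3 and Trib3 were lower. The median log2 ratio of the 39 genes was 0.21, with a 95% order-statistic interval of 0.04 to 0.34, beside 0.21 for all genes. Relative to the median of all genes, 20 of the 39 were above and 19 below. The standard deviation of the log2 ratios was 0.81 over the 39 genes, 1.29 over all genes and 1.035 over those 11726 genes. Of the 39, 26 lay within 1.5-fold, against 42.5% of all genes. With a minimum of 10 TPM in 1 library, 37 of the 39 remained, of which 4 were higher (18.3% of all genes at that minimum) and 2 lower (11.2% of all genes).

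These are abundant transcripts. Together the 39 genes gave 8579 TPM in M and 8844 TPM in MR, or 0.858% and 0.884% of the TPM of all loci, a ratio of 1.03. The median member stood at the 91.0 percentile of all genes in M and at 90.4 in MR. Calr, the calcium-binding lectin chaperone calreticulin, was first in both libraries, and the 5 most abundant members held 55.7% of the sum in M and 55.8% in MR. These were Calr, Pdia3, Hspa5 and Hsp90b1 in both libraries, with Pdia6 in M and P4hb in MR. At the other end, Derl3 was below 2 TPM in both.

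**Figure D1:**
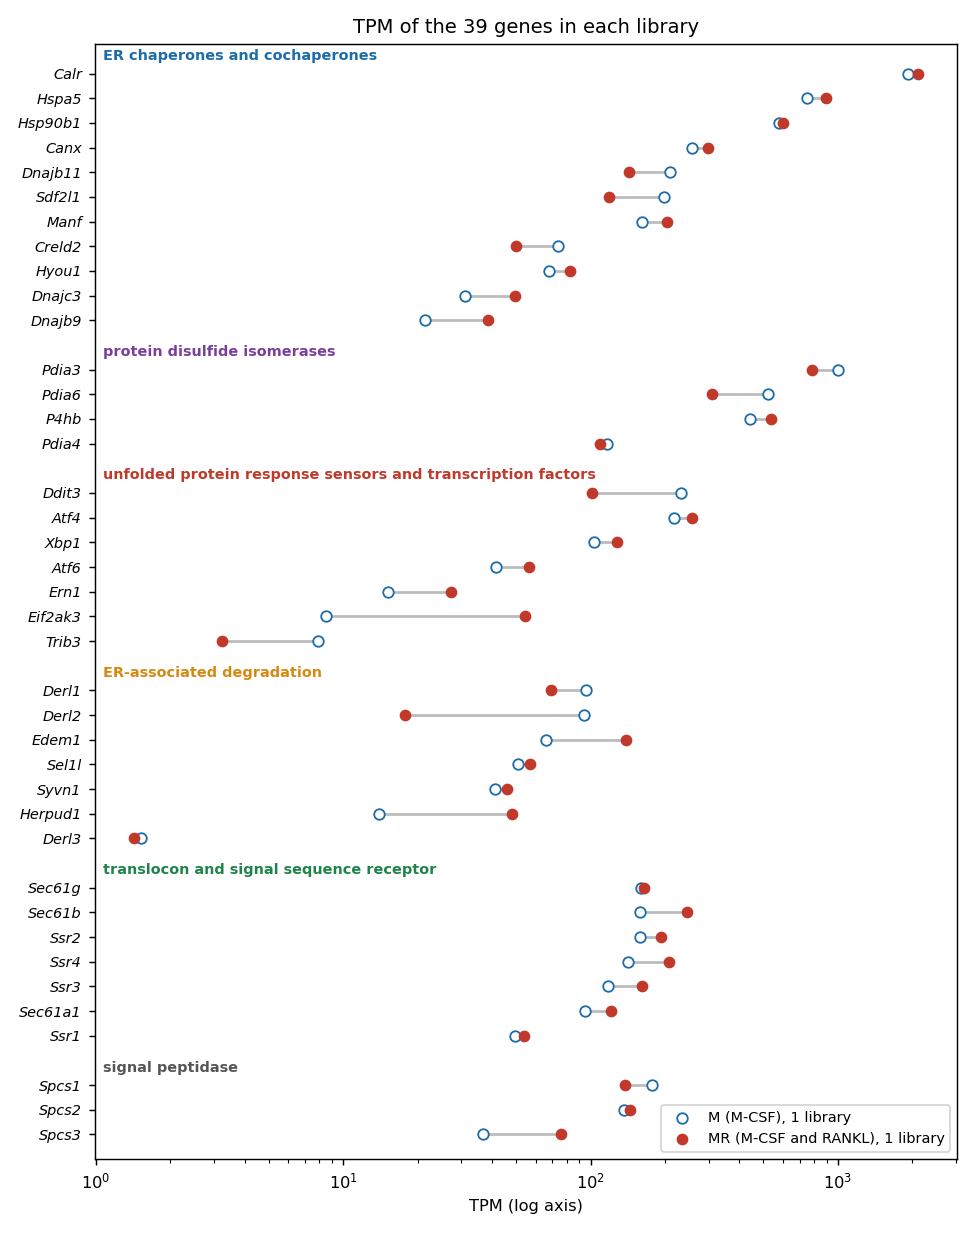
TPM of each of the 39 genes in the M library (open circles) and the MR library (filled circles) on a log axis, grouped by role and ordered by the level in M, with a grey line joining the 1 value per library. The chaperones and isomerases at the top lie close to their partner circle, and the long lines belong to Eif2ak3, Derl2 and Herpud1.

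None of the 11 ER chaperones and cochaperones passed the threshold, and their median log2 ratio was 0.21. Hspa5 (BiP), the Hsp70 of the ER and the usual readout of the unfolded protein response, was 751 TPM in M and 897 TPM in MR, for a log2 ratio of 0.26. Hsp90b1 (GRP94), the ER Hsp90, was 578 TPM in M and 598 TPM in MR (0.05). Calr was 1922 TPM in M and 2113 TPM in MR (0.14), and its membrane-bound partner in the folding of glycoproteins, Canx, was 258 and 299 TPM (0.21). These are the chaperones with the highest levels, and of the 4 the furthest from the median of all genes was Hsp90b1, by -0.16. Hyou1, a large Hsp70 that exchanges the nucleotide of BiP, was 68.1 TPM in M and 82.3 TPM in MR (0.27). Manf, a small secreted ER protein that binds BiP, was 161 TPM in M and 204 TPM in MR (0.34).

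The J-domain cochaperones of BiP, which deliver its substrates, took different positions within the group. Dnajb9 (ERdj4) was 21.4 TPM in M and 38.5 TPM in MR, for a log2 ratio of 0.82 with a 95% counting interval of 0.25 to 1.40. The counting interval is the range that read counting alone allows, from read pairs estimated from FPKM, and it holds no variation between cultures. Dnajc3 (P58IPK), also an inhibitor of PERK, was 31.1 TPM in M and 49.5 TPM in MR (0.65). Of the J-domain proteins on the list, 1 had the lower level in MR. Dnajb11 (ERdj3) was 209 TPM in M and 143 TPM in MR (-0.55). The other chaperones with the lower level in MR carry no J domain. Sdf2l1, the complex partner of Dnajb11, was 198 TPM in M and 118 TPM in MR (-0.74), the lowest ratio of the chaperone group. Creld2, an ER-resident protein that is induced by ER stress, was 74.2 TPM in M and 50.1 TPM in MR (-0.56). By that interval alone Dnajc3 lay above 0, at 0.53 to 0.78, and Dnajb11, Sdf2l1 and Creld2 below it, at -0.74 to -0.36, -0.88 to -0.60 and -0.76 to -0.35.

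None of the 4 protein disulfide isomerases, which form and rearrange disulfide bonds, passed the threshold. Their median log2 ratio was -0.22, and their sum was 2086 TPM in M and 1742 TPM in MR. Pdia3 (ERp57), which works with calreticulin and calnexin, was 1004 TPM in M and 789 TPM in MR (-0.35). Pdia6 was 523 TPM in M and 309.5 TPM in MR (-0.75), the lowest of the 4. Pdia4 was 116 TPM in M and 109 TPM in MR (-0.10). P4hb, the founding isomerase and also the beta subunit of collagen prolyl 4-hydroxylase, was the one with the higher level in MR, at 443 TPM in M and 534 TPM in MR (0.27).

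The 7 sensors and transcription factors of the unfolded protein response held 1 gene called higher and 2 called lower, with a median log2 ratio of 0.30. Eif2ak3 (chr6:70844515-70905245, plus strand, GRCm38), the kinase that phosphorylates eIF2alpha, was 8.52 TPM in M and 54.3 TPM in MR. It was 6.38-fold higher in MR, a log2 ratio of 2.54 with a counting interval of 2.07 to 3.04, and this was the highest ratio by TPM among the 39 genes. From coverage, the second measure described below, its log2 ratio was 1.51, beside 1.58 for Herpud1. That measure also has 1 added in each library, and the order of these 2 genes depends on the added 1. Its read pairs were estimated at 44 in M and 222 in MR from its shortest coding transcript, of 927 bases, and a longer transcript would give more. It ranked 37 of 39 by level in M and 29 in MR. The other sensors stayed within the thresholds. Ern1, the kinase and nuclease that splices Xbp1 mRNA, was 15.1 TPM in M and 27.2 TPM in MR (0.80, counting interval 0.29 to 1.33). Atf6, whose cleaved form is a transcription factor, was 41.4 TPM in M and 56.4 TPM in MR (0.44).

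Of the downstream factors, Xbp1 was 104 TPM in M and 127 TPM in MR (0.30), and the gene values do not separate its spliced from its unspliced form. Atf4, whose translation rises when eIF2alpha is phosphorylated, was 217 TPM in M and 257 TPM in MR (0.25). Ddit3 and Trib3, both targets of ATF4, were lower in MR. Ddit3 (chr10:127290774-127296288, plus strand), which encodes CHOP, a factor of stress-induced cell death, was 231 TPM in M and 101 TPM in MR, for a log2 ratio of -1.18 with a counting interval of -1.38 to -0.98. Trib3 (chr2:152337422-152344032, minus strand), a pseudokinase induced by CHOP and ATF4, was 7.93 TPM in M and 3.23 TPM in MR, for a log2 ratio of -1.08 with a counting interval of -1.74 to -0.46, from an estimated 90 and 29 read pairs. Both intervals reach past the threshold towards 0. The Trib3 locus covered 100% of the gene's exon bases in M and 37.9% in MR.

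The 7 genes of ER-associated degradation held 2 called higher and 1 called lower, with a median log2 ratio of 0.15. Herpud1 (chr8:94386438-94395377, plus strand), an ER membrane protein that assembles the degradation complex, was 13.9 TPM in M and 48.0 TPM in MR. It was 3.44-fold higher in MR, a log2 ratio of 1.71 with a counting interval of 1.29 to 2.15, from an estimated 64 and 174 read pairs. Edem1 (chr6:108828641-108859356, plus strand), which trims mannose from glycoproteins bound for degradation, was 66.1 TPM in M and 139 TPM in MR, for a log2 ratio of 1.06 with a counting interval of 0.98 to 1.14. Derl2 (chr11:71007164-71019841, minus strand), a derlin of the channel that moves proteins out of the ER, was 93.9 TPM in M and 17.8 TPM in MR. It was 5.27-fold lower in MR, a log2 ratio of -2.33 with a counting interval of -2.72 to -1.97, the lowest ratio by TPM among the 39 genes, from an estimated 465 and 70 read pairs. From coverage, the second measure described below, its log2 ratio was -0.68, which is short of the threshold, and Ddit3, Trib3, Pdia6 and Sdf2l1 were lower than it. The annotated starts of Derl2 and of Mis12 on the other strand overlap, but the assembled Derl2 locus and the Mis12 locus did not overlap in either library.

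The other derlins lay within the thresholds. Derl1 was 95.8 TPM in M and 68.9 TPM in MR (-0.47), and Derl3 was 1.53 and 1.42 TPM (-0.06), from an estimated 11 and 8 read pairs, so that its counting interval ran from -1.58 to 1.39. The ubiquitin ligase Syvn1 (HRD1) was 41.2 TPM in M and 45.8 TPM in MR (0.15), and its partner Sel1l was 50.7 and 57.0 TPM (0.17). The ligase complex thus lay near the median of all genes, while by TPM Herpud1 and Edem1 were past the upper threshold, Edem1 only just, and Derl2 past the lower.

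The translocon and the signal sequence receptor, through which chains enter the ER, had no gene past the threshold, and all 7 log2 ratios lay between 0.04 and 0.62, with a median of 0.35. Their sum was 881 TPM in M and 1147 TPM in MR, a ratio of 1.30. The channel subunit Sec61a1 was 94.8 TPM in M and 121 TPM in MR (0.35). Its small partners were 159 and 245 TPM for Sec61b (0.62) and 160.0 and 165 TPM for Sec61g (0.04). The accessory receptor beside the channel, also called the TRAP complex, is made of 4 subunits. Of its subunits, Ssr4 was 142 TPM in M and 207 TPM in MR (0.54), and Ssr3 was 118 and 162 TPM (0.46). Ssr2 was 158 TPM in M and 193 TPM in MR (0.29), and Ssr1 was 49.5 and 53.6 TPM (0.11). Their standard deviation was 0.21, the smallest of the 6 role groups. The sign of Sec61g and Ssr1 depends on the scaling, as given below.

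Of the 3 accessory subunits of the signal peptidase on the list, Spcs3 (chr8:54520433-54529998, minus strand) was called higher. It was 36.7 TPM in M and 76.0 TPM in MR, for a log2 ratio of 1.03 with a counting interval of 0.90 to 1.17. Spcs1 was 178 TPM in M and 138 TPM in MR (-0.37), and Spcs2 was 137 and 145 TPM (0.08). Spcs1 and Spcs3 therefore lay on opposite sides of 0 in these libraries.

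**Figure D2:**
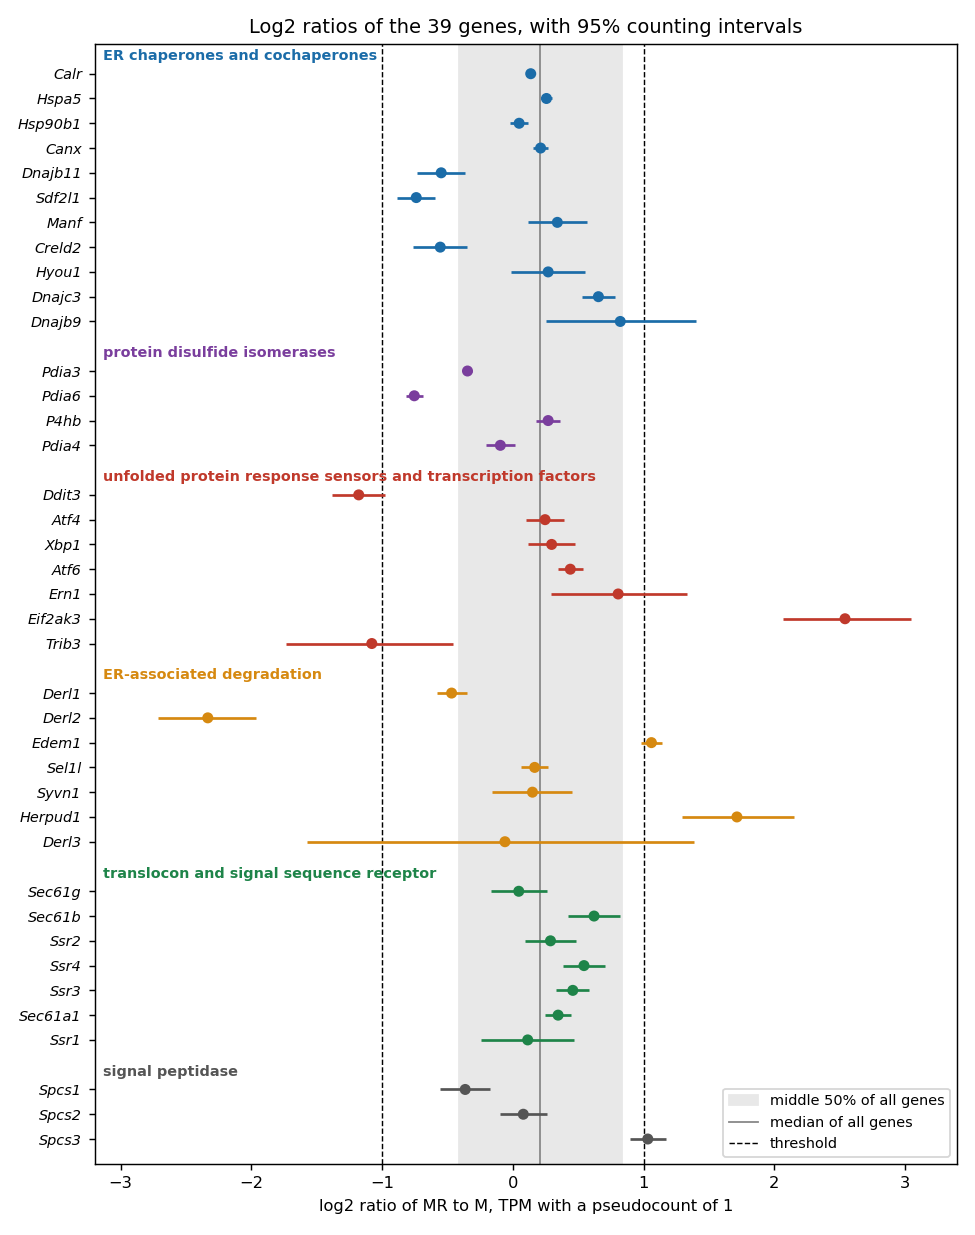
Log2 ratio of MR to M for each of the 39 genes (points), grouped by role, with 95% counting intervals (bars, read counting only), the thresholds at 1 and -1 (dashed), the median of all genes at 0.21 (grey line) and the middle 50% of all genes from -0.41 to 0.83 (grey band). Eif2ak3, Herpud1 and Derl2 are the 3 genes whose whole bar lies beyond a threshold, and 29 genes have their whole bar between the thresholds.

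Counting alone therefore does not place Edem1, Spcs3, Ddit3 and Trib3 on one side of the threshold, and it does place Eif2ak3, Herpud1 and Derl2 there. A further measure bears on these 3 genes. A coverage, which is the read depth per base, is listed beside FPKM. Dividing coverage by the aligned Gb and adding 1 in each library gives a second ratio. Coverage per Gb is on a smaller scale than TPM, so the added 1 shrinks this ratio more for genes at low levels. Listed coverage was within 5% of what FPKM corresponds to in both libraries for 27 of the 39 genes and not for 12. Herpud1 was among the 27, and its coverage per Gb was 6.45 in M and 21.4 in MR, for a log2 ratio of 1.58. For Eif2ak3 listed coverage was 91.0% of that level in M and 50.1% in MR, so that the coverage per Gb of 3.58 in M and 12.1 in MR gave a log2 ratio of 1.51. For Derl2 it was 30.4% in M and 99.2% in MR, and the coverage per Gb of 13.2 in M and 7.86 in MR gave a log2 ratio of -0.68, short of the threshold. Derl2 was thus lower in MR by both measures and past the threshold by TPM but not by coverage. By coverage per Gb, Eif2ak3, Herpud1 and Ddit3 (-1.23) were past the threshold, and Edem1 (0.95), Spcs3 (0.95) and Trib3 (-0.94) lay short of it. For Trib3 this rests on the added 1. Its coverage per Gb was 3.67 in M and 1.44 in MR, which is past 2-fold without it.

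**Figure D3:**
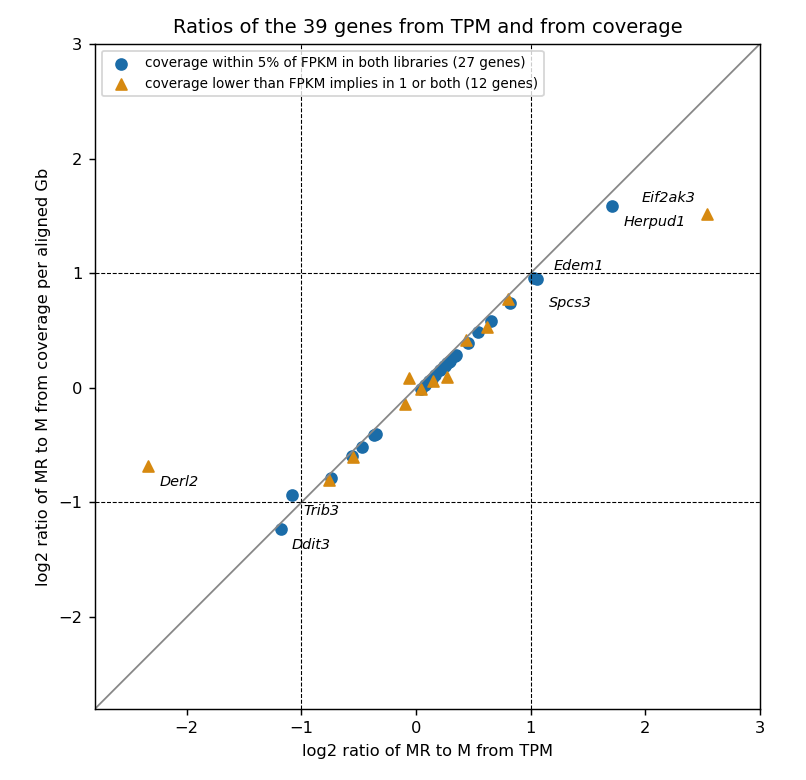
Log2 ratio of MR to M from TPM (horizontal) and from coverage per aligned Gb (vertical) for the 39 genes, with the line of equality and the thresholds (dashed). Circles are the 27 genes whose listed coverage is within 5% of FPKM, triangles the 12 where it is not, and Derl2 and Eif2ak3 are the triangles that lie far from the line.

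Scaling also moves the thresholds for genes near them. Scaling by the median of ratios shifted the median of all genes by -0.20. With that scaling Eif2ak3 and Herpud1 were the 2 genes called higher, at 2.35 and 1.51, and Derl2, Ddit3 and Trib3 the 3 called lower, while Edem1 was 0.85 and Spcs3 0.83. The median of the 39 genes was then 0.0042, and 20 genes lay above 0 and 19 below, against 27 and 12 by TPM. Calr, Hsp90b1, Sec61g, Sel1l, Spcs2, Ssr1 and Syvn1 changed sign, so that no direction is given for them.

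The promoter elements can be set beside the calls. None of the 9 genes with the ER stress response element was past the threshold, and their log2 ratios ran from -0.75 in Pdia6 to 0.65 in Dnajc3. Of the 39 genes, 10.3% were called higher and 7.69% lower, against 21.0% and 13.0% of all genes. With such shares, no call among 9 genes is not read as a result about the element. Of the 2 genes with the second form, Herpud1 was 1.71 and Dnajb11 -0.55. Of the 2 with the amino acid response element core, Herpud1 was higher and Trib3 lower. The windows of Eif2ak3, Edem1, Derl2 and Ddit3 held none of the 4 motifs. These matches describe letters in the windows printed above, not binding.

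Genes of the same pathways outside the 39 were taken from 8 further lists with 108 genes, of which 107 had a value and Kdelr3 had no locus. In all, 12 were called higher (11.2%, against 21.0% of all genes) and 6 lower (5.61%, against 13.0%), and their median log2 ratio was 0.21. From coverage, 16 were higher and 5 lower, where 17.3% of all genes were higher and 11.1% lower. The targets of the integrated stress response, the arm that PERK shares with other eIF2alpha kinases, held 8 of these calls. Of the 12 targets, 5 were higher (21.0% of all genes) and 3 lower (13.0% of all genes) by TPM. Their median was 0.14 and their standard deviation 1.75. Coverage did not bear out the call of Cebpg and did not decide that of Ddit4. Cebpg, called lower, was 0.46 from coverage, of the opposite sign. Ddit4, called higher but below 10 TPM in both libraries, was 0.36, short of the threshold. At such low levels the added 1 shrinks the ratio from coverage. The other calls of this list were past the threshold from coverage too. Asns, asparagine synthetase, was 18.7 TPM in M and 76.5 TPM in MR (1.97, or 1.70 from coverage). Chac1, which degrades glutathione, was 2.79 TPM in M and 12.8 TPM in MR (1.86, or 1.36 from coverage). Atf3, a stress-induced transcription factor, was 408 TPM in M and 44.8 TPM in MR (-3.16), and Cebpb, a C/EBP factor that is also active in macrophages, was 179 and 65.8 TPM (-1.43). Levels within this list thus differed in both directions. Among the 39 genes, Ddit3 and Trib3 were both lower, and Herpud1, which like Trib3 holds the amino acid response element core, was higher (1.71).

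The sensors and proteases outside the 39 genes held 2 of 11 called higher and 0 lower, with a median of 0.19. Creb3l2, an ER membrane factor related to ATF6, was 2.92 TPM in M and 23.1 TPM in MR (2.62), and Mbtps1, the site-1 protease that cuts ATF6, was 23.3 and 49.4 TPM (1.05). Of the 13 genes for the signal recognition particle and targeting, 2 were higher and 0 lower, with a median of 0.10. Srp68, a protein of the particle, was 47.1 TPM in M and 110.4 TPM in MR (1.21), and Sec11c, a catalytic subunit of the signal peptidase that works with Spcs3, was 111 and 257 TPM (1.21). Of the 14 further chaperones, 2 were higher and 1 lower, with a median of 0.38. Fkbp11, a prolyl isomerase of secretory cells, was 0.792 TPM in M and 10.9 TPM in MR (2.73), Dnajc1 was 20.2 and 43.4 TPM (1.07), and Cnpy3, a chaperone for Toll-like receptors, was 114 and 48.9 TPM (-1.21). The counts of these lists are by TPM. From coverage, Mbtps2 (1.38), Srp19 (1.80), Sil1 (1.90) and Fkbp2 (1.24) were also past the threshold.

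Of the 14 genes for further oxidative folding, 0 were higher and 2 lower, with a median of 0.09. Prdx4, the ER peroxiredoxin, was 159.5 TPM in M and 60.8 TPM in MR (-1.38, or -1.42 from coverage). P4ha1, the alpha subunit that pairs with P4hb, was 79.8 TPM in M and 35.0 TPM in MR (-1.17), but its ratio from coverage was 0.49, of the opposite sign. None of the 15 further genes of ER-associated degradation passed the threshold, with a median of 0.23 and a range of -0.80 to 0.96. None of the 10 oligosaccharyltransferase genes, which add glycans to entering chains, passed it either, with a median of 0.31 and a range of -0.21 to 0.72. From coverage, however, Rpn2 was -1.04 and Magt1 1.07. Of the 18 genes with a value for transport from the ER to the Golgi, 1 was higher and 0 lower, with a median of 0.26. It was Sec24d, a cargo adaptor of the COPII coat, at 19.5 TPM in M and 47.9 TPM in MR (1.26).

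**Figure D4:**
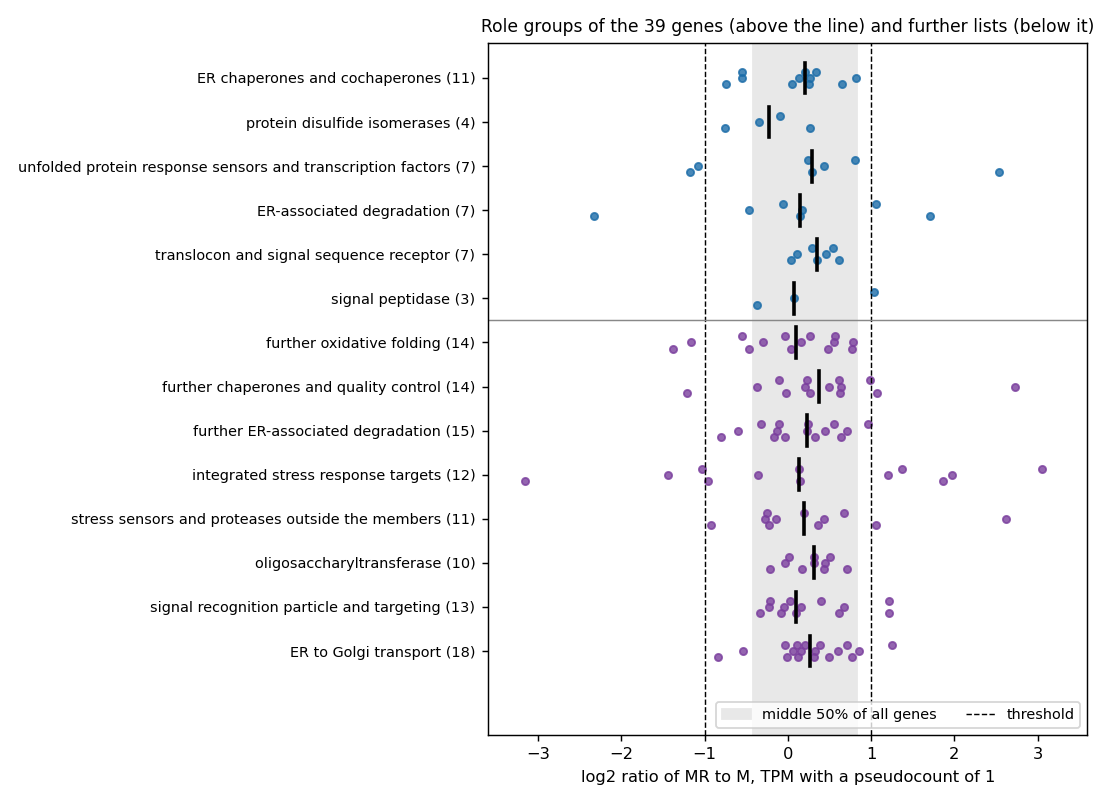
Log2 ratio of MR to M for every gene of the 6 role groups (above the line) and of the 8 further lists (below it), with the median of each group as a bar, the number of genes in brackets, the thresholds (dashed) and the middle 50% of all genes (grey band). The integrated stress response targets spread from -3.16 to 3.05, and the oligosaccharyltransferase and translocon genes lie between the thresholds.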

How the data were processed

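RNA from 2 cultures, 1 library per condition, was measured. The authors trimmed the reads with Trim Galore, aligned them to mm10 (GRCm38) with HISAT2 and assembled and quantified them with StringTie using GENCODE vM27. Versions were not given in the sources used here. The deposited tables list coverage (read depth per base, not scaled for depth), and the deposited FPKM and the deposited TPM are normalized by the authors. Entries with gene names carry GRCm39 positions and were not used. Each assembled locus was given to the GENCODE vM21 gene on its strand with which it shared most exon bases, at least 50, and TPM was summed per gene. A locus that covered at least 50% of the exons of another coding gene was called shared, and genes inside another gene's locus got no value.

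Aligned bases were read as the commonest quotient of coverage and FPKM where FPKM exceeded 5. Read pairs (2 reads of 150 bases) were estimated from FPKM, aligned bases and the shortest coding transcript, and 95% counting intervals are exact (Clopper-Pearson). They cover counting error only. Where longer transcripts are present, the pairs are underestimated and the intervals too wide. All 39 genes were named, and in each further list the 2 highest and 2 lowest among called genes with at least 10 TPM. Members and lists were chosen with earlier results of these data known. Assignment and motif search were tested on simulated data. Promoter sequences are from RefSeq (GRCm38.p6). Python 3.11.15, pandas 2.3.3, scipy 1.17.1 and matplotlib 3.10.9 were used. Alternatives were another pseudocount, other filters, FPKM, coverage, other scalings, a threshold of 2 and stricter locus rules.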

Additional observations from a re-analysis of the deposited data

How the results depend on the processing

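With 1 library per condition, no replicate could be left out, and no difference between cultures was separated from the difference between conditions. No paired analysis was possible because each condition has 1 library and no result comes from a test. Of 383 log2 ratios of the 39 genes under the alternatives, 334 stayed within their counting interval, 49 moved outside it (26 of these with median-of-ratios scaling), and 0 of the called genes changed sign. The count of genes called higher went from 4 to 2 with FPKM, with median-of-ratios scaling, with the mitochondrial and the 20 most abundant genes left out, and with coverage per aligned Gb, and to 1 with a log2 threshold of 2. The count called lower went from 3 to 1 with coverage and with the threshold of 2. With coverage, Trib3 left the count only through the added 1. The median of the 39 genes was 0.0042 with median-of-ratios scaling. Counts over all genes, 2817 higher and 1747 lower, became 1590 and 975 at 10 TPM, 1793 and 1104 with a locus in both libraries, and 931 and 501 with the threshold of 2, where the further lists had 3 higher and 1 lower. The summed TPM of the 39 genes, 8579 in M and 8844 in MR, became 9221 and 8229 with median-of-ratios scaling, the reverse order, and 6657 and 6732 without Calr. Where loci had to hold 50% of the exon bases, Manf lost its M locus, which falls just short of that share, and Trib3 its MR locus, so that their ratios became 7.68 and -3.16. After the data were seen, 2 alternatives were added. The largest locus alone kept the counts at 4 and 3, and the 27 genes whose coverage matches FPKM gave 3 higher and 2 lower.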

Other observations

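On the strand opposite to Atf6, within that gene, the M library held a locus of 31.5 TPM (chr1:170704728-170710062, plus strand, GRCm38) that no gene of the annotation took, and MR held none there. Its lowest position is also that of the Atf6 locus in M. Whether its reads came from Atf6 transcripts was not tested. Atf6 itself was 41.4 TPM in M and 56.4 TPM in MR. On the strand opposite to Hyou1 a locus at chr9:44387713-44387829 was 2.94 TPM in M and 0.206 TPM in MR. Whether that short locus is a transcript of its own was not tested either. The assembled 5' ends of the loci were close together in both libraries for most of the 39 genes. The 5' end moved by a median of 9 bases between M and MR, 37 of the 39 moved by at most 100 bases, and Derl3, at below 2 TPM, moved by 416 bases. These are ends of assembled loci, and transcript start sites were not mapped. Of the ATF4 targets outside the rule for named genes, chosen here after their values were seen, Ppp1r15a, which encodes the eIF2alpha phosphatase subunit GADD34, was 13.2 TPM in M and 35.8 TPM in MR (a log2 ratio of 1.37), Ddit4 was 1.21 TPM in M and 4.12 TPM in MR, and Vldlr had no locus in M and 7.27 TPM in MR. Cebpg was 51.9 TPM in M and 24.9 TPM in MR (a log2 ratio of -1.03), with a ratio from coverage of 0.46, of the opposite sign. The log2 ratio of Ddit4 was 1.21 from TPM and 0.36 from coverage, short of the threshold, where the added 1 shrinks it at this low level.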
